A study of Gallus gallus with 2 samples.

Results

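The genes described here code for MAP kinases and the kinases that activate them, for p21-activated kinases (PAK), DYRK, calmodulin-dependent, AMP-activated, cyclic-AMP-dependent and C-type protein kinases, for ribosomal S6 kinases, and for the protein phosphatases of the DUSP, PTPN, PTPR and PPP families. They were picked out by gene symbol: a probe was taken where its RefSeq accession led to a chicken gene whose symbol began with one of those family names. The families themselves were chosen with earlier results of these data known. This gave 71 genes, read by 182 probes, of 5382 genes that could be named on the array. Expression was measured in DT40, a chicken B cell line, in 2 stably transfected cultures. The R80C culture expressed FLAG-H2A.Z-R80C, a cancer-associated mutant of the histone variant H2A.Z, and the H2A.Z.1 culture expressed FLAG-H2A.Z.1. Both cultures carried the knockout of both H2A.Z genes and were grown without tetracycline, so that the mutation in the transgene was the labelled difference. The sources used here do not say whether each line is a single clone. There was 1 array per culture, so no difference below has a replicate, a test or a p-value, and each describes these 2 arrays.

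A MAP kinase cascade passes a signal through kinases acting in sequence: a MAP3K phosphorylates a MAP2K, which phosphorylates a MAP kinase, which in turn acts on transcription factors and on downstream kinases of the ribosomal S6 kinase family. Phosphatases oppose each step, the DUSP family on MAP kinases, the PTPN and PTPR families on phosphotyrosine, and the PPP family on phosphoserine and phosphothreonine. In B cells such cascades are engaged by the B cell receptor. The roles given below are those known for the human and mouse proteins of the same name.

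Signal is the scanner's background-subtracted processed signal, and differences are log2 of the R80C signal minus log2 of the H2A.Z.1 signal after each was divided by its array's 75th percentile (1055 for R80C and 1078 for H2A.Z.1). A probe was called measured when both arrays flagged it as well above background. The value of a gene is the mean of its measured probes, and its printed signal the arithmetic mean of theirs. On the R80C array 71.5% of spots were well above background, and on the H2A.Z.1 array 70.1%. The arrays shared a slide and a scan, per the file headers. For scale, the difference had an SD of 0.094 between probes of the same gene over 2776 genes. This is a spread between probes on the same 2 arrays, pooled over bright and dim genes, and it covers no difference between cultures. H2AFZ, the gene of H2A.Z.1, gave differences of -0.028 and 0.11 at its 2 probes, which cannot be assigned to the transgene or the knocked-out locus. All 12 B cell marker genes that could be named were measured on both arrays, among them CD79B, a chain of the B cell receptor, and PAX5. Of the 12, 6 lay above 0 and 6 below, from JCHAIN at -0.48 to EBF1 at 0.29. Of markers of other cells, 5 of 6 T cell, 3 of 5 myeloid, 3 of 4 erythroid and thrombocyte, and 3 of 5 fibroblast genes were also measured. The measured T cell genes went both ways: CD3E, which codes for part of the T cell receptor, had a signal of 95.4 in R80C cells and 340 in H2A.Z.1 cells (-1.54), and CD5 one of 93.0 in R80C cells and 58.7 in H2A.Z.1 cells (0.50). The other T cell genes, CD3D, CD28 and CD8A, lay between -0.071 and 0.084, and CD4 was below background on both arrays. CD3D was bright, at 36047 in R80C cells and 39701 in H2A.Z.1 cells. On 1 measured probe each, CD28 had 15.5 in R80C cells and 15.4 in H2A.Z.1 cells, and CD8A 57.3 and 55.3. Among fibroblast genes the collagen gene COL1A2 had 388 in R80C cells and 200 in H2A.Z.1 cells (0.94). LUM stood at 0.27 on 1 dim probe of 3, with 12.5 in R80C cells and 10.6 in H2A.Z.1 cells. COL3A1 stood at -0.083 on 2 probes of 10. The myeloid genes lay between -0.54 and 0.048 and the erythroid and thrombocyte genes between -0.11 and 0.25. The lowest myeloid gene, CSF3R, rested on 1 dim probe of 2, with 10.2 in R80C cells and 15.2 in H2A.Z.1 cells. The part of such genes in the differences below was not tested.

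Most of these kinase and phosphatase genes had nearly the same signal on both arrays. Of the 71 genes, 64 were measured on both. Less than 1.2-fold different were 58 of these 64, near the array-wide share of 3891 of 4326 named genes. The median difference of the 64 genes was 0.030, against 0.013 over all 4326 named genes measured, and the SD across genes was 0.18, against 0.20 over all. Above 0 lay 38 genes and below it 26, a share close to that over all named genes, of which 2405 lay above 0 and 1921 below. The members' split followed the scaling and was 47 and 17 with scaling on array medians and 35 and 29 with scaling on spike-in probes. None reached 1.5-fold on the side higher in R80C cells, against a background of 0.67% among all named genes. DYRK2 and PAK1 were at least 1.5-fold lower, 2 of 64 against a background of 1.27%. No gene differed by 2-fold in either direction, where the background was 0.162% higher and 0.301% lower. With a threshold of 1.2-fold, 1 gene was higher (background 4.07%) and 5 were lower (background 5.99%). The higher gene was PPP1R19L, and the lower ones were DYRK2, PAK1, PTPN9, RPS6KA5 and PTPRU.

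**Figure D1:**
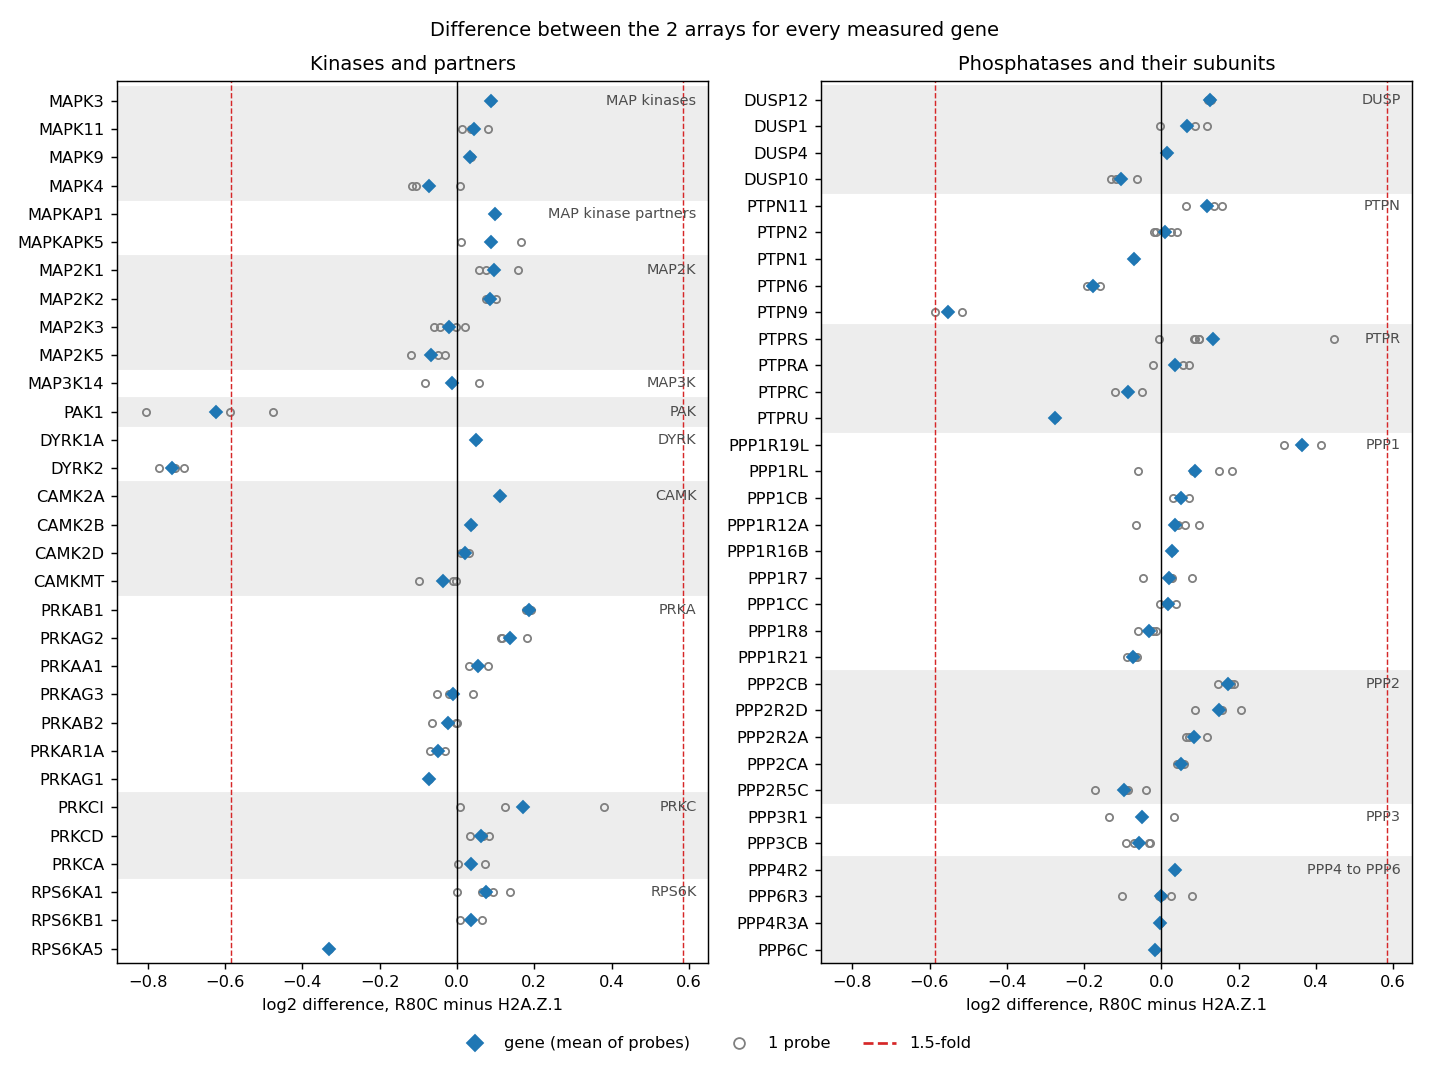
Log2 difference (R80C minus H2A.Z.1, x axis) of the 64 genes measured on both arrays, grouped by family, with a diamond for the mean of a gene's probes and a circle for each probe. Nearly all genes lie close to 0, whereas the circles of DYRK2, PAK1 and PTPN9 all lie below -0.4, and the 1.5-fold lines stand at -0.58 and 0.58.

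DYRK2 stood lowest of the 64 genes. Its product is a kinase that phosphorylates serine, threonine and its own activation-loop tyrosine, and acts on p53 and on protein turnover. Its brightest probe had a signal of 212 in R80C cells and 353 in H2A.Z.1 cells. A second probe gave 141 in R80C cells and 238 in H2A.Z.1 cells, and the third, near background, 7.51 and 13.1. All 3 probes were lower in R80C cells by a like amount, with differences of -0.71, -0.73 and -0.77. The gene's value was -0.74, or 1.67-fold lower, and 36 of 4326 named genes had a lower one. The other DYRK gene, DYRK1A, a kinase of brain development and cell cycle exit, differed by 0.049, with a signal of 57.8 in R80C cells and 57.0 in H2A.Z.1 cells at its only probe.

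PAK1 came next. The kinase is switched on by the GTPases RAC and CDC42 and acts on the actin cytoskeleton and on RAF and MEK signalling. Its 4 probes read 143, 64.8, 47.3 and 38.6 in R80C cells. In H2A.Z.1 cells the same probes read 225, 116, 72.5 and 54.9. Each was lower in R80C cells, with differences between -0.81 and -0.48, a mean of -0.62, or 1.54-fold, and 46 named genes had a lower value. No other PAK gene could be named among the probes. Both DYRK2 and PAK1 are dim. In raw terms, the brightest PAK1 probe read 148 in R80C cells and 217 in H2A.Z.1 cells over local backgrounds of 29.5 and 27. After normexp background correction with quantile normalization, which adds an offset that draws dim signals together, DYRK2 stood at -0.37 and PAK1 at -0.38, under 1.5-fold. Under the other 9 ways of processing both stayed at least 1.5-fold lower, PAK1 by the narrowest margin at -0.59 with array medians.

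**Figure D2:**
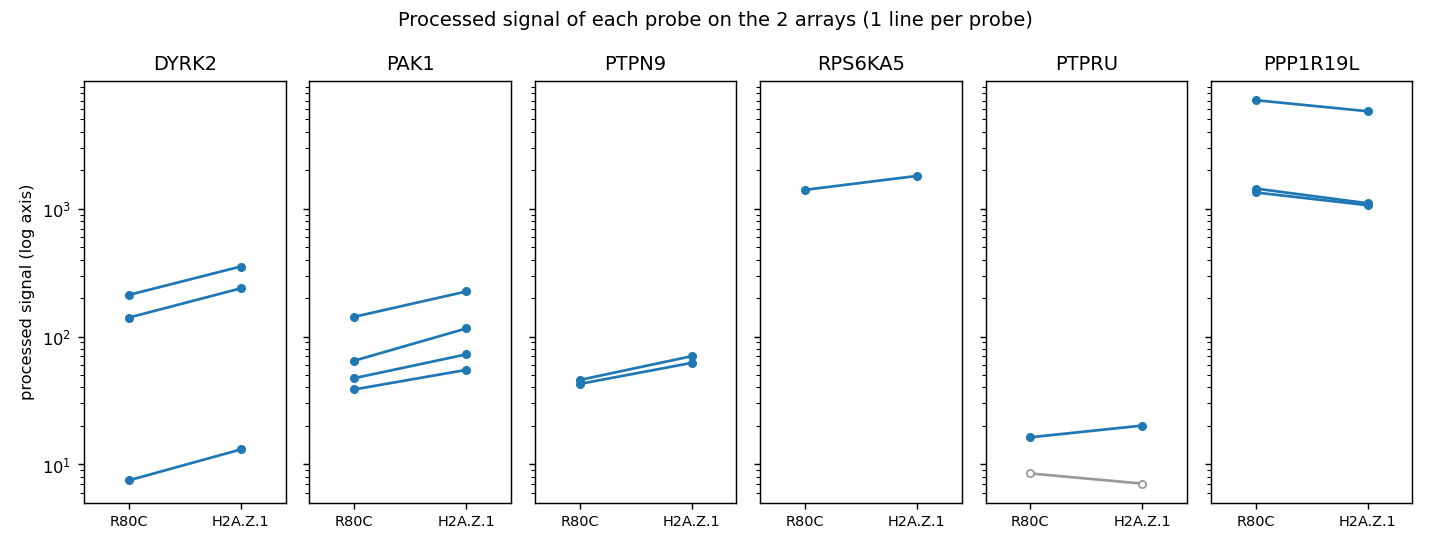
Processed signal (y axis, log scale) of every probe of 6 genes on the R80C array (left) and the H2A.Z.1 array (right), with 1 line per probe and open grey circles for a probe not measured on both. All 3 DYRK2, 4 PAK1 and 2 PTPN9 probes are lower in R80C cells, all 3 PPP1R19L probes are higher, and the 2 PTPRU probes point in opposite directions.

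The signal class of these genes bears on how far their values stand out, because dim genes differed more often. Of the 64 genes, 34 lay below the median signal of measured named genes. Among these 34, 2 were at least 1.5-fold lower in R80C cells, against a background of 2.5% of the 2163 dim genes, and 4 were at least 1.2-fold lower, against 10.7%. None of the 34 was 1.5-fold or 1.2-fold higher, against 1.34% and 7.3% of the dim genes. Among the 30 brighter ones none was 1.5-fold different, against 0% higher and 0.0462% lower of all brighter genes, and the 2 that were 1.2-fold different were PPP1R19L (higher, background 0.832%) and RPS6KA5 (lower, background 1.25%).

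**Figure D3:**
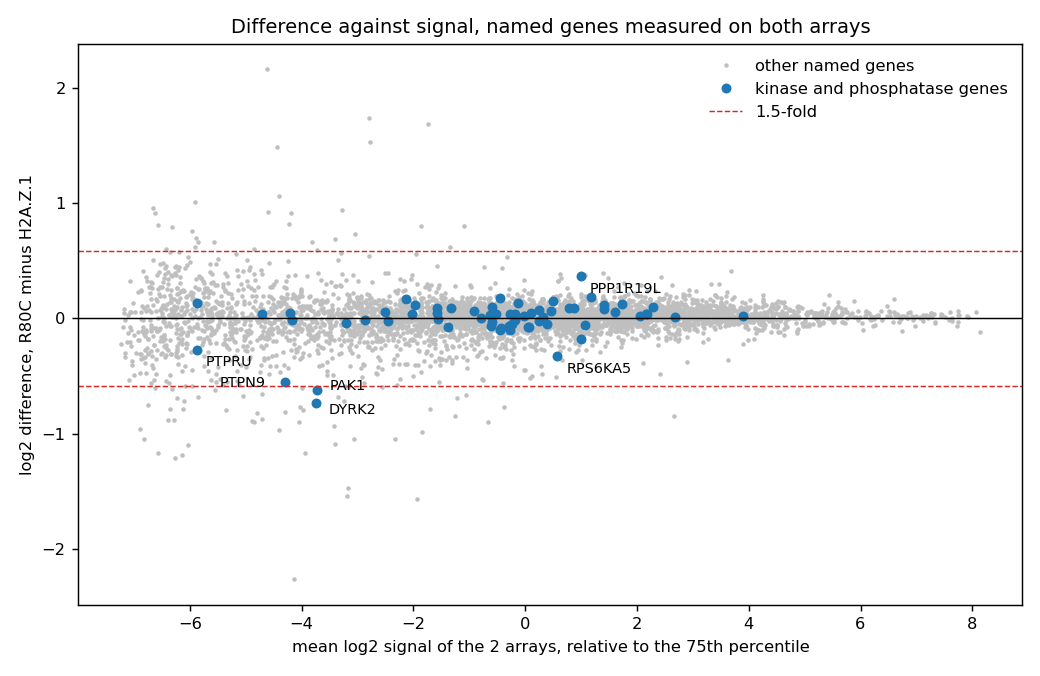
Log2 difference (R80C minus H2A.Z.1) against the mean log2 signal of both arrays for 4326 named genes (grey) and the 64 kinase and phosphatase genes (blue), with dashed lines at 1.5-fold. DYRK2, PAK1, PTPN9 and PTPRU lie on the dim side, where the grey cloud is wide, and RPS6KA5 and PPP1R19L on the bright side, where it is narrow.

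The core of the MAP kinase cascade showed small differences only. The 4 MAP kinase genes lay between -0.071 and 0.087. MAPK3, the kinase ERK1, had a signal of 364 in R80C cells and 350 in H2A.Z.1 cells (0.087, 1 probe). MAPK4, an atypical MAP kinase, had 1750 in R80C cells and 1815 in H2A.Z.1 cells (-0.071), and 1 of its 3 probes lay above 0. MAPK9, a JNK kinase, stood at 0.034 and MAPK11, a p38 kinase, at 0.043. None of the 4 reached 1.2-fold. Upstream, MAP2K1 (MEK1), which activates ERK kinases, was at 5869 in R80C cells and 5626 in H2A.Z.1 cells, a difference of 0.097 with its 3 probes above 0. Its partner MAP2K2 (MEK2) was at 2977 in R80C cells and 2858 in H2A.Z.1 cells, a difference of 0.085 with its 3 probes above 0 as well. MAP2K3, which activates p38 kinases, stood at -0.021 and MAP2K5, which activates ERK5, at -0.067. Both MEK genes thus lay above 0 and the other MAP2K genes below it, although MAP2K3 moved above 0 with array medians. All of these values were smaller than or close to the SD between probes.

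MAP3K14, the NF-kB-inducing kinase NIK of BAFF and CD40 signalling, was the only MAP3K gene named. It had 243 in R80C cells and 241 in H2A.Z.1 cells, a difference of -0.013, and its 2 probes lay on opposite sides of 0. No MAP4K gene was matched to a probe. The MAP kinase partners were MAPKAP1 (SIN1, a subunit of the kinase complex mTORC2) at 0.097 and MAPKAPK5, a kinase acted on by p38 and atypical MAP kinases, at 0.088. The probes of MAPKAPK5 stood at 0.17 and 0.010, the brighter of them nearer to 0.

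DUSP genes code for dual-specificity phosphatases, several of which switch MAP kinases off and are themselves induced by MAP kinase signalling. Of 7 genes, 4 were measured, all within 1.2-fold. DUSP10, which acts on JNK and p38, had 1252 in R80C cells and 1379 in H2A.Z.1 cells, and its 3 probes lay between -0.13 and -0.063. DUSP12 had 3986 in R80C cells and 3729 in H2A.Z.1 cells, with its 2 probes at 0.12 and 0.13. DUSP1, an early-induced phosphatase of p38 and JNK, stood at 0.067 and DUSP4, a nuclear phosphatase, at 0.014. DUSP6, the cytoplasmic ERK phosphatase and a usual marker of ERK output, was not well above background on either array at any of its 4 probes, which read 1.19 to 2.09 in R80C cells and 1.43 to 1.96 in H2A.Z.1 cells. DUSP28 and DUSP29 were likewise below background on both arrays. In all, 6 of the 71 genes (8.45%) did not clear background at any probe on either array, against 17.3% of all named genes.

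The non-receptor tyrosine phosphatases included the lowest phosphatase gene. PTPN9, known as MEG2 and linked to vesicle fusion, had signals of 45.8 and 42.6 at its 2 probes in R80C cells, against 70.2 and 62.3 in H2A.Z.1 cells. Both probes were lower in R80C cells, with differences of -0.59 and -0.52. The mean of -0.55, or 1.47-fold, lay just outside the 1.5-fold threshold, inside which PAK1 at -0.62 was the nearest gene. It was -0.23 after normexp with quantile normalization.

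PTPN6 and PTPN11 code for SHP-1 and SHP-2, which bind phosphorylated receptors through SH2 domains, SHP-1 as an inhibitor of B cell receptor signalling and SHP-2 as an activator of the RAS and ERK pathway. PTPN6 had 6209 in R80C cells and 7163 in H2A.Z.1 cells, and its 3 probes lay at -0.19, -0.18 and -0.16. PTPN11 had 3594 in R80C cells and 3333 in H2A.Z.1 cells, with its 3 probes between 0.064 and 0.16. These genes thus stood on opposite sides of 0, at -0.18 and 0.12, in each of the 11 ways of processing, and neither reached 1.2-fold. PTPN1 (PTP1B, 1 probe) stood at -0.070 and PTPN2, its close relative that acts on JAK and STAT proteins, at 0.0085.

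Receptor-type tyrosine phosphatases span the cell membrane, and 4 of their 7 genes were measured. PTPRC, which codes for CD45, the phosphatase of all white blood cells that keeps SRC family kinases active, had 758 in R80C cells and 824 in H2A.Z.1 cells. Its 2 probes were both below 0, at -0.12 and -0.050. PTPRA, another activator of SRC family kinases, stood at 0.036. PTPRS was read by 6 probes, of which 5 lay between -0.0071 and 0.097. The brightest stood apart at 0.45, with 55.6 in R80C cells and 41.7 in H2A.Z.1 cells, so that the gene's 0.13 rested on it in part. With the median of its probes PTPRS stood at 0.092.

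PTPRU, a phosphatase linked to cell adhesion, had 1 measured probe, at 16.3 in R80C cells and 20.1 in H2A.Z.1 cells (-0.27, or 1.21-fold lower). Its other probe, which did not clear background in H2A.Z.1 cells, read 8.50 in R80C cells and 7.08 in H2A.Z.1 cells, the opposite direction. With that probe included, under the more lenient detection flag, PTPRU stood at 0.011. PTPRO was the 1 gene of the 71 (1.41%, background 1.88%) that was above background in R80C cells only. At 1 of its 3 probes it read 8.72 in R80C cells and 6.53 in H2A.Z.1 cells, for a computed bound of 1.28-fold. The raw signals of that probe were close, 39.5 in R80C cells and 39 in H2A.Z.1 cells, over local backgrounds of 30 and 32. Its other probes, below background on both arrays, went opposite ways, at 0.43 and -0.049. With no filter on dim probes, signals under an array's lowest signal well above background were raised to that level. A probe under both levels then counted as -0.23, whatever its signals. PTPRO, with its other probes so set, stood at -0.033, which is not a measured reversal. No gene was above background in H2A.Z.1 cells only, where the background was 0.446%. PTPRJ (CD148) and PTPRZ1, a phosphatase of the nervous system, were below background on both.

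Protein phosphatase 1 (PP1) pairs a catalytic subunit with regulatory subunits that set its target. All 9 PPP1 genes were measured. The catalytic subunit genes PPP1CB and PPP1CC stood at 0.051 and 0.017, PPP1CC with signals of 17528 in R80C cells and 17802 in H2A.Z.1 cells. PPP1R19L, placed in this family by its symbol alone, was the highest of all 64 genes measured. Its 3 probes read 7052, 1437 and 1339 in R80C cells, against 5780, 1103 and 1065 in H2A.Z.1 cells. All 3 were higher in R80C cells, with differences of 0.32, 0.41 and 0.36 and a mean of 0.36, or 1.29-fold, and 93 of 4326 named genes had a higher value. The name is that of the RefSeq table, and the function of its product is not given there. PPP1R21, a factor of endosome traffic, was the lowest PPP1 gene at -0.073 with 3 probes below 0. PPP1R12A, the myosin phosphatase targeting subunit MYPT1, PPP1R7, a partner of PP1 in mitosis, PPP1R8, a nuclear inhibitor, PPP1R16B and PPP1RL lay between -0.033 and 0.088.

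Protein phosphatase 2A (PP2A) is built from catalytic, scaffold and B subunits and counteracts mitotic kinases. Of its 5 genes, 4 lay above 0 and 1 below, in the reported scaling and in each of the 10 alternatives, with a median of 0.084. Over all named genes measured, 2405 lay above 0 and 1921 below in the reported scaling. The alternatives start from the same 2 arrays, so their agreement is no replicate. The catalytic subunit gene PPP2CB had 882 in R80C cells and 797 in H2A.Z.1 cells, with 3 probes between 0.15 and 0.19. PPP2CA, the other catalytic gene, stood at 0.050. The B55 subunit genes PPP2R2D, whose product acts at mitotic exit, and PPP2R2A stood at 0.15 and 0.084, with all of their probes above 0. The B56 subunit gene PPP2R5C stood at -0.097, with its 4 probes between -0.17 and -0.038. None of these genes reached 1.2-fold.

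Calcineurin, the calcium-dependent phosphatase that activates NFAT, was represented by its catalytic gene PPP3CB at -0.057 and its regulatory gene PPP3R1 at -0.051. The 4 PPP3CB probes were all below 0, while the bright PPP3R1 probe, at 9220 in R80C cells and 9204 in H2A.Z.1 cells, lay at 0.033. The genes of PP4 and PP6, phosphatases related to PP2A, lay close to 0. PPP4R2 stood at 0.036, PPP4R3A at -0.0036, PPP6C at -0.016 and PPP6R3 at -0.00018.

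Of the S6 kinases, which act below ERK, p38 and mTOR, RPS6KA5 was lower in R80C cells. It codes for MSK1, a nuclear kinase that phosphorylates histone H3 and CREB. Its only probe had a signal of 1404 in R80C cells and 1804 in H2A.Z.1 cells, a difference of -0.33 or 1.26-fold, and 184 named genes had a lower value. The value lay between -0.35 and -0.29 in every way of processing, and no second probe bears on it. RPS6KA1 (RSK1) stood at 0.075 over 5 probes and RPS6KB1, the S6 kinase below mTOR, at 0.036.

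**Figure D4:**
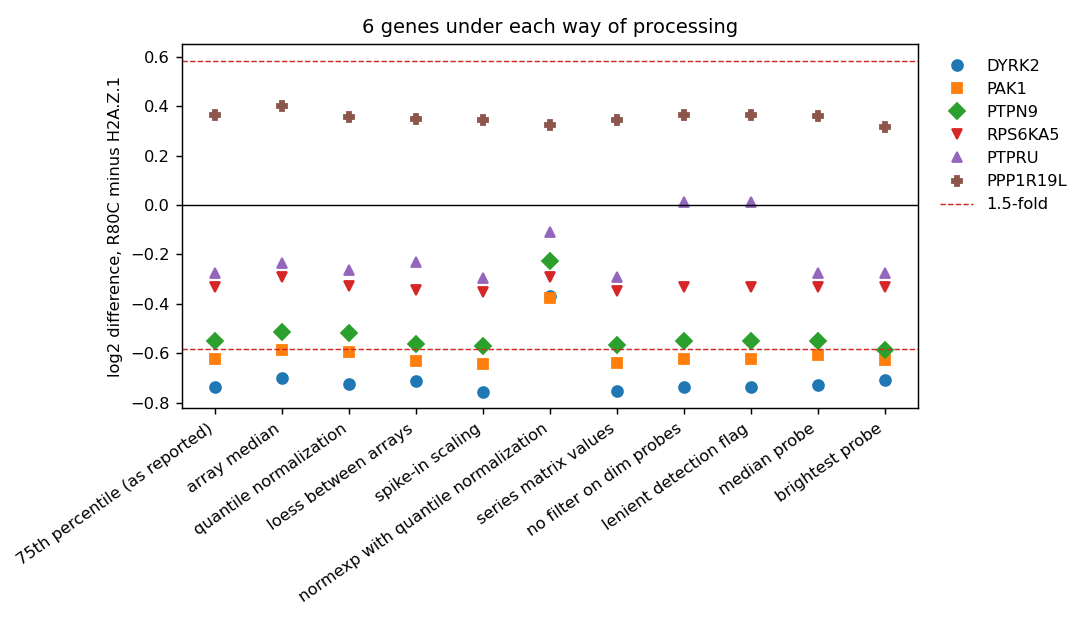
Log2 difference (R80C minus H2A.Z.1, y axis) of 6 genes under the reported scaling and 10 alternatives (x axis), with dashed lines at 1.5-fold. DYRK2 and PAK1 lie past the 1.5-fold line except with normexp and quantile normalization, at -0.37 and -0.38, and RPS6KA5 and PPP1R19L hold their place throughout.

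AMP-activated protein kinase (AMPK), the sensor of cellular energy, has alpha, beta and gamma subunits, most of which were measured. The beta subunit gene PRKAB1 had 2748 in R80C cells and 2464 in H2A.Z.1 cells, with 2 probes at 0.19 and 0.18. The gamma subunit gene PRKAG2 had 1367 in R80C cells and 1256 in H2A.Z.1 cells, with 3 probes between 0.11 and 0.18. PRKAG1 stood lowest of the family at -0.072 (1 probe), and PRKAB2, PRKAG3 and the catalytic gene PRKAA1 lay between -0.023 and 0.055. The other catalytic gene, PRKAA2, was below background on both arrays. PRKAR1A, a regulatory subunit of cyclic-AMP-dependent kinase (PKA), had 6551 in R80C cells and 7016 in H2A.Z.1 cells (-0.050).

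All 3 protein kinase C genes lay above 0 in the reported scaling, at 0.037 for PRKCA, 0.062 for PRKCD, which limits B cell survival, and 0.17 for PRKCI, an atypical form of cell polarity. Over all named genes measured, 2405 of 4326 lay above 0. The PRKCA and PRKCD values were smaller than the SD of 0.094 between probes of the same gene. The PRKCI value came from dim probes. Its brightest probe read 5192 in R80C cells and 5270 in H2A.Z.1 cells, a difference of 0.0090, whereas the dimmest read 19.8 in R80C cells and 15.5 in H2A.Z.1 cells, a difference of 0.38. After normexp with quantile normalization 1 of the 3 genes lay below 0. Of the calmodulin-dependent kinase genes, CAMK2A stood at 0.11, on 1 measured probe of 2, CAMK2B at 0.037 and CAMK2D at 0.021. CAMKMT, at -0.037, codes for a methyltransferase of calmodulin and shares only the prefix.

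Several probes of a gene gave a view of technical agreement. Of 50 genes with several measured probes, 36 (72%) had all of them on the same side of 0, where the background was 66.7%. The SD between probes of the same gene was 0.069 over these 50 genes. The differences of DYRK2, PAK1, PTPN9 and PPP1R19L were several times that spread. It pools bright and dim genes and does not measure how far separate cultures of the same line would differ.

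Other genes of these pathways were read from lists of symbols, and none of their 54 measured members was 1.5-fold different. With backgrounds of 0.67% higher and 1.27% lower, a count of 0 in lists of this size is near the background, and the splits around 0 below stand beside 2405 above and 1921 below over all named genes. Among RAS, RAF and adaptor genes 13 were measured, 8 above 0 and 5 below, with a median of 0.028. The highest was BRAF at 0.10 and the lowest the GTPase gene HRAS, with 366 in R80C cells and 472 in H2A.Z.1 cells (-0.34, 1 probe). Among transcription factors and early genes below MAP kinases 12 were measured, 6 above 0 and 6 below, with a median of -0.0027. SRF, a factor activated through ERK, stood highest at 0.18, and ETS2 lowest at -0.45, with 14.5 in R80C cells and 20.2 in H2A.Z.1 cells at a dim probe.

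Among small GTPases and PAK partners 16 were measured, 8 above 0 and 8 below, with a median of 0.00063. The highest was GIT1, a scaffold of the PAK and PIX complex, with 99.5 in R80C cells and 82.4 in H2A.Z.1 cells (0.30, 1 probe), and the lowest was RAC2, the GTPase of blood cells, at -0.19. Among regulators of PKA, calmodulin kinases and PP2A 13 were measured, 5 above 0 and 8 below, with a median of -0.021. ARPP19, an inhibitor of PP2A in mitosis, stood highest at 0.20. RCAN1, an inhibitor of calcineurin that NFAT induces, stood lowest at -0.34 over 3 probes, with 267 in R80C cells and 327 in H2A.Z.1 cells. The medians of all 4 lists lay within 0.1 of 0, as did the median over all named genes.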

How the data were processed

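Per the labels' protocols, Cy3-labelled RNA of 1 culture per group was read on 1-colour Agilent chicken arrays. The deposited scanner files hold spot intensity from Feature Extraction 11.5.1.1 (protocol GE1_1105_Oct12, grid build galGal3), per the file headers. Processed intensity is background-subtracted within an array and not normalized between arrays. Flags per spot (well above background, positive, saturated, outlier) come from the same files, where no spot was saturated. The authors also deposited a series matrix of linear intensity, whose basis is not stated: its columns equalled processed signal times 1.51 (R80C) and 1.50 (H2A.Z.1), with medians of 125.1 and 129.9.

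From these, log2 processed signal minus log2 of the array's 75th percentile was computed (Python 3.11.15, limma 3.58.1 for alternatives), spots of a probe were averaged and a gene was the mean of its measured probes. Where a gene was above background on 1 array only, the bound sets the bright value against the dim value or, if higher, against the lowest signal well above background there (5.81 for R80C and 6.95 for H2A.Z.1). Of 13060 probes with a RefSeq accession, 11935 matched a RefSeq table of assembly GRCg7b. It names 212 genes by the same symbol rule, of which 141 had no matched probe and were not analysed here. Samples were grouped by the expressed protein in the labels. With 1 array per group no test was made. The calculation was tested on simulated data.

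The members and lists were chosen with earlier results of these data known. The text names every member at least 1.5-fold different and the highest and lowest member of each family (32 genes); the rest were named after their values were seen, and the 1.2-fold threshold was set then too. The planned normexp correction was run on the median spot signal, the raw signal the files hold.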

Additional observations from a re-analysis of the deposited data

How the results depend on the processing

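The alternatives were array medians, quantile normalization, loess, spike-in scaling, normexp with quantile normalization, series matrix values, no filter on dim probes, a lenient detection flag, and the median or the brightest probe. With no filter, signals under each array's lowest signal well above background (5.81 for R80C and 6.95 for H2A.Z.1) were raised to that floor. The count at least 1.5-fold lower was 2, except 0 after normexp with quantile normalization and 3, with PTPN9, for the brightest probe. The count at least 1.5-fold higher was 0 in every setting, and the median of the genes ranged from 0.011 (spike-in scaling) to 0.068 (array medians). With the 1.2-fold threshold, chosen after seeing the data, normexp left 3 lower genes in place of 5, array medians, loess, no filter on dim probes and the lenient flag left 4, each without PTPRU (-0.24, -0.23, 0.011 and 0.011), and the lenient flag and the brightest probe gave 3 and 2 higher ones in place of 1. Of 320 values of the 32 genes named by rule, 11 moved by more than the SD between probes, among them CAMK2A, at -0.059 with no filter. There its dim probe, at 1.72 in R80C cells and 2.03 in H2A.Z.1 cells, was raised to the floors. The unequal floors give any such probe a fixed difference of -0.23. Above 0 in all 11 ways of processing lay 32 of the 64 genes, and below it 12. The same count was not made over all named genes, and all 11 ways start from the same 2 arrays. No paired analysis was possible because each group has 1 array. For dim genes the signal over background limits what can be read.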

Other observations

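Genes next to 4 of the 6 members that differed by 1.2-fold or more were read by their order on assembly GRCg7b, taking the nearest 2 measured protein-coding genes on each side. They were looked up after the members' values were known, and no test was made. Near DYRK2, all 4 genes read lay below 0 in the reported scaling, where 1921 of 4326 named genes also lay below 0. IFNG, the interferon gamma gene and the only 1 of them that adjoins DYRK2, had a signal of 8.56 in R80C cells and 10.9 in H2A.Z.1 cells (-0.33, 2 dim probes). TMBIM4 had 1480 in R80C cells and 1782 in H2A.Z.1 cells (-0.24, 1 probe). MDM1 stood at -0.071 and LLPH at -0.045, both smaller than the SD of 0.094 between probes of the same gene. Between DYRK2 and TMBIM4, LLPH and MDM1 lie 4, 5 and 3 protein-coding genes. None of the genes read near PAK1 adjoins it. On 1 side AAMDC had 277 in R80C cells and 348 in H2A.Z.1 cells (-0.30, 1 probe). KCTD14 on that side had 1016 in R80C cells and 1167 in H2A.Z.1 cells (-0.18, 2 probes). Between them and PAK1 lie 3 and 5 protein-coding genes. On the other side, beyond 11 and 12 such genes, UVRAG stood at 0.071 and ART1L1 at 0.014. Beside PPP1R19L the neighbours lay between -0.18 (ITGA6) and 0.058 (OLA1), with PDK1, the nearest, at 0.032. PTPN9 lies between SIN3A at 0.0091 and SNUPN at 0.082.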
